A study of Mus musculus with 15 samples.

Results

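DNA methylation is laid down by writers, removed by erasers and bound by readers. The writers include Dnmt1, which copies the mark onto the new strand after DNA replication, Uhrf1, which binds hemimethylated DNA and brings Dnmt1 to it, and the de novo methyltransferases Dnmt3a and Dnmt3b. The erasers Tet1, Tet2 and Tet3 oxidise 5-methylcytosine, the glycosylase Tdg cuts out the oxidised base, and Mbd2 is a reader that binds methylated CG pairs and recruits a repressor complex. Neurons are known for high levels of Dnmt3a and of oxidised methylcytosine, and dividing cells for Uhrf1. The 9 genes were chosen by name for these roles, with 4 writers, 4 erasers and 1 reader, out of 23589 loci with a gene name and 33603 loci in all. Each name matched 1 locus. RNA was measured here; methylation and enzyme activity were not.

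The study asked whether a short period of dietary restriction leaves changes that outlast it and whether DNA methylation takes part. Male C57BL/6 mice on 3 diets gave RNA-Seq libraries of hypothalamus, hippocampus, liver, colon mucosa (called colon here) and epididymal fat. AL mice ate ad libitum and were 5 months old. DR mice were given 60% of the AL intake, a restriction of 40%, for 1 month from 4 months of age and were also 5 months old. DR-AL mice had the same month of DR followed by 2 months of AL feeding and were 7 months old, so that age and refeeding cannot be told apart in them. Every tissue and diet had 1 library of RNA pooled from 5 mice, which makes 15. The study's methods give 5 mice on AL and 10 on DR, of which 5 went on to DR-AL, so by these numbers the 5 tissues of a diet came from the same mice. A difference between 2 diets within a tissue therefore had no replicate check. Libraries held 21767088 to 40500130 counts in named loci, with a median of 26554699, so that 1 count was worth 0.0247 to 0.0459 CPM, counts scaled to the library's total in named loci. In whole tissue, fewer cells of a type and less RNA per cell cannot be told apart.

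Markers of the labelled tissues were present in each. The hepatocyte list of 9 genes summed to 5.59e+04, 5.96e+04 and 5.51e+04 CPM in liver on AL, DR and DR-AL, although its defining marker Alb was listed at 0 in all 15 libraries. A 0 in the table therefore need not mean absence of RNA, here or for other genes listed at 0. Markers of colon epithelium, 9 of 9 detected, summed to 2.18e+04, 2.16e+04 and 2.16e+04 CPM in colon. Of 9 hypothalamic markers 8 were in the table and summed to 1.03e+03, 883 and 857 CPM in hypothalamus, with at most 5.33 CPM in hippocampus. Telencephalic excitatory neuron markers reached 2.09e+03, 2.08e+03 and 1.87e+03 CPM in hippocampus, led by Slc17a7, and 236, 214 and 159 CPM in hypothalamus. The 4 pan-neuronal markers summed to 2.37e+03, 2.63e+03 and 2.96e+03 CPM in hypothalamus and 5.68e+03, 5.52e+03 and 5.12e+03 CPM in hippocampus, led by Snap25.

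The 3 fat libraries stood apart from the rest by their content. Adipocyte markers, 6 in the table and led by Cfd, summed to 2.21e+04, 1.98e+04 and 1.63e+04 CPM on AL, DR and DR-AL. Testis germ cell markers, of which 14 of 15 were in the table, summed to 185, 643 and 2.31e+03 CPM, with Zbtb16 most abundant on AL and DR and the sperm protamine Prm2 on DR-AL. Zbtb16 was also at 18.6 to 97 CPM in liver and the brain regions, and without it the sums in fat were 11.9, 443 and 2.11e+03 CPM. In the AL fat library the germ cell markers Sycp1, Spo11, Hormad1 and Acrv1 were at 0, while all 14 were detected on DR and DR-AL. The epididymis epithelium list of 8 genes, led by Crisp1, summed to 908, 3.23e+03 and 5.11e+03 CPM, with Lcn9 and Cst8 at 0 on AL and Lcn9 at 0 on DR-AL. Hepatocyte markers, led by Cyp2e1, which adipose tissue also expresses, summed to 1.45e+04, 5.3e+03 and 4.12e+03 CPM, and without Cyp2e1 to 5.79e+03, 57 and 16.3 CPM. Both sums with a gene left out were chosen after the values were seen. The 6 leukocyte markers in the table, led by Lyz2, summed to 278, 389 and 356 CPM. The part of these cell types in the fat results was not tested.

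Diets were compared within a tissue by the Z test of the study's methods on library totals, with Benjamini-Hochberg adjustment over all genes with a count in that tissue. A gene was called, and is said to have risen or fallen, at an adjusted p under 0.05 and a difference of at least 0.32 on the log2 scale, called the fold threshold here. Because the test knows counting error only, it compares 2 libraries and not 2 diets, and intervals given in brackets are 95% Clopper-Pearson intervals for counting error. Comparisons with AL share the AL library of their tissue, and all 3 comparisons in a tissue share libraries in pairs.

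In liver 1 of 9 members was called for DR against AL, where 28.0% of all genes tested were called. DR-AL against AL called 5 of 9, all lower, beside 30.9% of all genes tested, 15.8% being called lower. DR-AL against DR called 4 of 9, all lower, beside 40.8%, 24.0% being called lower. Neuronal markers in liver, led by Syt1, summed to 15.6, 18.7 and 5.63 CPM on AL, DR and DR-AL. Leukocyte markers there summed to 70.1, 55.5 and 72.1 CPM, and the part of these cells was not tested. In epididymal fat 4, 7 and 4 of 9 were called in the same order of comparisons, against 45.6%, 57.9% and 51.6% of all genes. Colon had 2, 1 and 1 of 9, against 19.7%, 14.3% and 14.5%; the 2 were higher, beside 9.04% of all genes called higher. In hypothalamus 0 of 9 were called in each comparison, against 7.05%, 15.1% and 9.62%, and in hippocampus 0 of 9 as well, against 4.03%, 6.15% and 4.88%. With 9 genes a share moves in steps of 11.1 percentage points, so the counts in colon, those in fat other than DR-AL against AL, and the last in liver lay within 1 step of the share called in either direction. Counted by direction, the 2 higher in colon on DR and the 4 and 5 lower in liver on DR-AL lay above the background by more than a step. In fat on DR-AL against AL the 7 calls did so in either direction, while the 5 higher and 2 lower, beside 46.0% and 11.9%, lay within a step of it. The single call in liver on DR lay below the share in either direction by more than a step. In the brain regions 0 of 9 lay within a step of the background except in hypothalamus on DR-AL against AL (15.1%), where it lay below by more than a step. A step is only 1 gene, and whether a count differed from the background was not tested. The background also holds scarce genes: of 17408 tested in liver 12823 had a mean of at least 10 counts, and of 18242 in colon 13714. These counts are therefore not read as a result about the members. Of the 29 differences called in all, 15 were in fat. A coefficient of variation of 0.1 between pools, in place of counting error alone, kept 16 of the 29, and the spread estimated over the 3 libraries of a tissue kept 2.

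The writer Dnmt1 lies on chromosome 9 from 20907209 to 20959888 (GRCm38, GENCODE M21, minus strand). Among the tissues it had its highest levels in CPM in the brain. On AL, DR and DR-AL it stood at 87, 84.8 and 85 CPM in hypothalamus and at 51.8, 51.6 and 50.2 CPM in hippocampus. Fat gave 22.5, 30.8 and 40.4 CPM, colon 24.1, 34.7 and 28.4 CPM, and liver 7.76, 9.37 and 3.18 CPM. In CPM, tissue means ran from hypothalamus through hippocampus, fat and colon to liver, with fat and colon overlapping and no other neighbours doing so, over a 12.6-fold span. This order and those of the other members are in CPM; in FPKM, Dnmt1 in fat (2.45, 1.94 and 1.39) lay in the range of liver (2.69, 3.06 and 1.12), and colon (4.48, 6.37 and 5.42) overlapped hippocampus (5.82, 6.29 and 6.18). The ratio of FPKM to CPM itself differed between libraries. Its median over genes on AL was 0.771 in liver, 0.414 in colon, 0.268 in hippocampus, 0.26 in fat and 0.193 in hypothalamus. In fat it was 0.158 on DR and 0.0857 on DR-AL. Tissue orders in FPKM, for Dnmt1 and the other members, therefore include a shift that is not particular to the gene. In CPM fat ran upward from AL to DR-AL, the DR library was the highest in colon, and the DR-AL library was the lowest in liver.

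**Figure D1:**
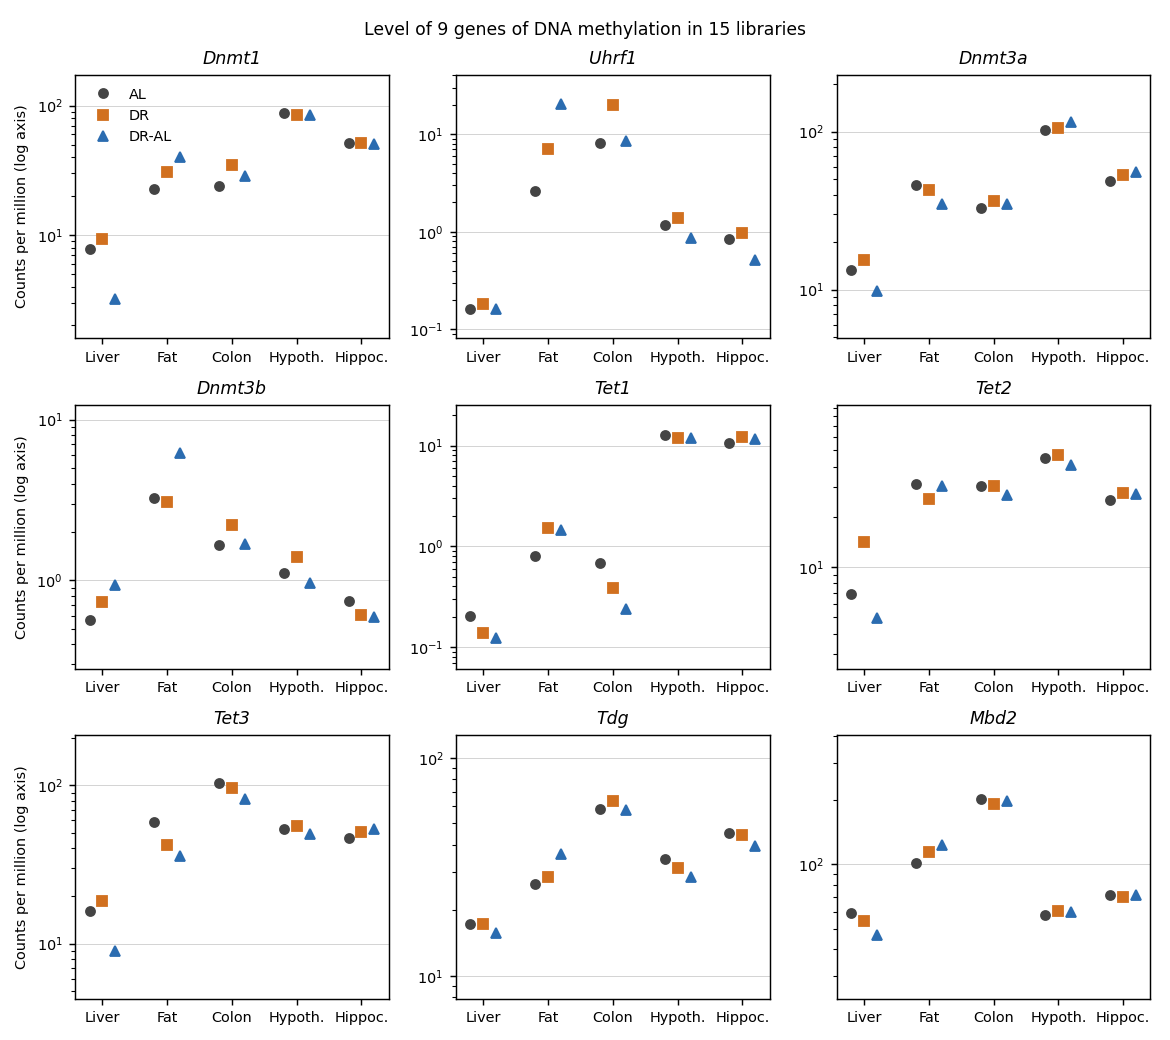
Level of each of the 9 genes in CPM of named loci, on a log axis, with 1 point per library coloured by diet and the 5 tissues along the horizontal axis. Uhrf1 spreads between diets in fat (2.59 to 20.4 CPM) and colon (8.1 to 19.8 CPM), and Tet1 separates the brain libraries (at least 10.5 CPM) from all others (at most 1.53 CPM).

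Liver Dnmt1 counts were 192 on AL, 204 on DR and 78 on DR-AL. The DR-AL library was the low one. Dnmt1 fell by 1.28 on the log2 scale in DR-AL against AL [-1.68, -0.90], and by 1.55 against DR [-1.95, -1.17], with Benjamini-Hochberg adjusted p of the Z test of 1.68e-11 and 2.98e-17. DR against AL was not called, at 0.27 [-0.02, 0.56]. In colon the counts were 639, 1161 and 712, with DR the highest library, and Dnmt1 rose by 0.53 in DR against AL [0.39, 0.67; adjusted p of the Z test 3.43e-13], a call lost with the coefficient of variation of 0.1. Neither DR-AL against AL (0.24) nor DR-AL against DR (-0.29) passed the fold threshold there. All 6 Dnmt1 comparisons in the brain regions lay between -0.04 and 0.00.

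Uhrf1, on chromosome 17 from 56303321 to 56323486 (plus strand), had its widest differences between diets in colon and fat. Colon libraries held 215, 663 and 215 counts on AL, DR and DR-AL, or 8.1, 19.8 and 8.58 CPM. Only the DR library was high. The rise in DR against AL was 1.29 on the log2 scale [1.07, 1.52], the fall in DR-AL against DR was -1.21 [-1.44, -0.98], and DR-AL against AL was 0.08 [-0.20, 0.36], not called. Adjusted p of the Z test were 1e-33 and 3.91e-29 for the called pair. These were the 2 differences among all 29 called between diets that were also called when the spread was estimated over the 3 libraries of a tissue. Fat libraries held 68, 160 and 557 counts, or 2.59, 7.01 and 20.4 CPM, so that AL was lowest and DR-AL highest there. Uhrf1 rose in fat by 1.43 in DR against AL [1.02, 1.87], by 2.96 in DR-AL against AL [2.61, 3.36] and by 1.54 in DR-AL against DR [1.28, 1.80]. Liver held 4 counts of Uhrf1 in each library, hypothalamus 1.18, 1.4 and 0.865 CPM and hippocampus 0.84, 0.961 and 0.517 CPM, with no call in any of these. The spread over tissues was 71.8-fold, with colon and fat overlapping at the top, the brain regions overlapping in the middle and liver at the bottom; in FPKM colon (at least 2.58) lay above fat (at most 1.24).

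Markers of dividing cells were counted beside Uhrf1. The list of 18 genes summed to 307, 600 and 326 CPM in colon on AL, DR and DR-AL, with 18 of 18 detected in every library. The DR library was high in the list as it was in Uhrf1, and it was low in adipocyte markers (14.5, 4.16 and 16 CPM in colon) and leukocyte markers (36.4, 20.5 and 47.9 CPM), with neuronal markers at 7.57, 6.61 and 4.31 CPM. In DR against AL 16 of 18 rose and 0 fell, beside 9.04% and 10.6% of all genes, with a median of 1.01 against 0.01 for all genes. Mki67, a nuclear protein of cycling cells, had 1206, 4394 and 1031 counts and was the most abundant of the list on DR. DR-AL against DR had 0 higher and 13 lower (median -0.70), beside 6.78% and 7.67% of all genes. DR-AL against AL had 4 higher and 2 lower (median 0.02), where 1064 of 18242 genes tested rose and 1551 fell. The crypt and stem cell list of 6 genes, led by Sox9, summed to 106, 132 and 120 CPM in colon, with 4 genes higher and 1 lower in DR against AL, beside 9.04% and 10.6% of all genes. In DR-AL against AL its Ascl2 (0.77), Smoc2 (0.52) and Sox9 (0.36) were higher and Cd44 (-0.56) lower. Lgr5 and Axin2 were not called, and the background is the 1064 higher and 1551 lower given above. Sums of the dividing list were 186, 228 and 350 CPM in fat, 77.2, 89.4 and 67.1 CPM in liver, 121, 121 and 113 CPM in hypothalamus and 130, 119 and 118 CPM in hippocampus. Its most abundant gene was Pcna in all but 2 libraries, with Mki67 in colon on DR and Mcm7 in fat on DR-AL. In fat 8, 16 and 11 of the 18 were higher and 3, 1 and 0 lower in the 3 comparisons, beside 35.2%, 46.0% and 38.3% of all genes called higher; the list's medians were 0.23, 0.83 and 0.63, against 0.24, 0.34 and 0.24 for all genes. The part of dividing cells in the Uhrf1 and Dnmt1 differences was not tested.

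Across the 15 libraries, which share their 5 tissues and 3 diets, Uhrf1 correlated with the summed dividing list at r = 0.97 (Pearson, log2 scale; Spearman 0.95) and at 0.99 over the 12 libraries without fat. Mbd2 followed at 0.94, Tdg at 0.76, Dnmt3b and Tet3 at 0.72 each and Tet2 at 0.48. Dnmt1 stood at 0.28, Dnmt3a at 0.16 and Tet1 at -0.25. These values are a description.

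**Figure D2:**
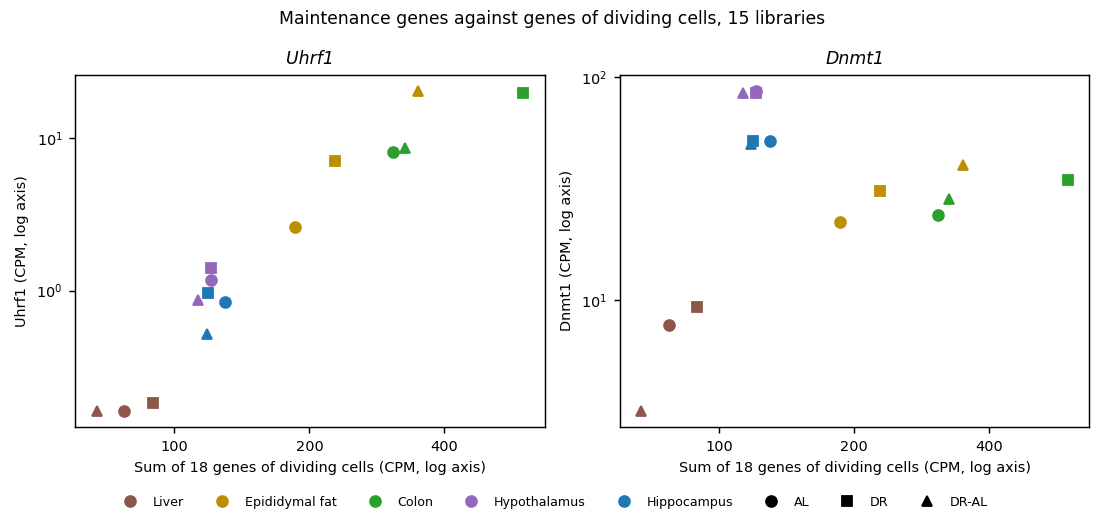
Uhrf1 and Dnmt1 in CPM on the vertical axes against the summed CPM of the 18 dividing-cell markers on the horizontal axis, both on log axes, with 1 point per library shaped by diet and coloured by tissue. Uhrf1 lies along the markers (r = 0.97 over 15 libraries) and Dnmt1 less so (r = 0.28).

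Further cofactors of the writers were counted from a list of 7 genes. In colon 6 were tested for DR against AL, 2 rose, 1 fell and 3 were not called, beside 9.04% and 10.6% of all genes called higher and lower. The chromatin remodeller Hells, which acts with the methyltransferases, rose from 155 counts on AL to 359 on DR (0.88 log2) and had 159 on DR-AL. Cdca7, a partner of Hells, went from 612 to 1167 (0.60) and stood at 635 on DR-AL. Trdmt1, a methyltransferase that acts on tRNA, was the gene that fell (-0.46). In DR-AL against DR 2 of 6 fell, Hells (-0.76) and Cdca7 (-0.46), and 0 rose, beside 7.67% and 6.78% of all genes. In liver 0 of 6 were called on DR, beside 28.0%, and 2 of 6 fell in DR-AL against AL, the deubiquitinase Usp7 (-0.35) and Dmap1 (-0.35), which binds Dnmt1, beside 15.8%. In DR-AL against DR 3 of 6 fell there and 1 rose, beside 24.0% and 16.9%, with Hells at -1.14 (24 and 12 counts on DR and DR-AL), Trdmt1 at 1.09 (34 and 82) and Usp7 at -0.46. All 7 cofactors were tested in the brain regions and 0 were called in any diet comparison, where 4.03% to 15.1% of all genes were.

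The de novo writer Dnmt3a, on chromosome 12 from 3806007 to 3914443 (plus strand), was also highest in the brain in CPM. It stood at 102, 105 and 115 CPM in hypothalamus on AL, DR and DR-AL and at 49, 53 and 55.4 CPM in hippocampus. Fat gave 46.1, 42.6 and 34.9 CPM, colon 33.1, 36.4 and 35.1 CPM, and liver 13.3, 15.4 and 9.84 CPM. Hypothalamus lay above every other library, liver below, and fat and colon overlapped; in FPKM liver (2.08 to 3.4) overlapped fat (0.989 to 3.79), and hippocampus (3.99 to 4.84) overlapped colon (4.15 to 4.48). In liver Dnmt3a fell by 0.43 in DR-AL against AL [-0.68, -0.19; adjusted p of the Z test 0.00123; lost with the coefficient of variation of 0.1] and by 0.64 in DR-AL against DR. Hypothalamus on DR-AL was 0.17 above AL [0.10, 0.24], under the fold threshold. The locus overlaps Gm10485 on the opposite strand, and processed copies of Dnmt3a can share reads, so its counts are uncertain to that extent.

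Dnmt3b, on chromosome 2 from 153649450 to 153687730 (plus strand), was scarce in all tissues. Its counts were 14, 16 and 23 in liver, 44, 74 and 42 in colon, 33, 46 and 30 in hypothalamus and 30, 19 and 15 in hippocampus. In fat they were 85, 70 and 169, or 3.24, 3.07 and 6.18 CPM, above every library of another tissue (at most 2.21 CPM), but in FPKM fat (0.503, 0.281 and 0.306) overlapped liver (0.289 to 0.44) and colon (0.443 to 0.582). No comparison outside fat was called, and the intervals were wide: colon DR against AL was 0.41 [-0.14, 0.99]. A near copy of Dnmt3b lies beside it in the mouse genome, and reads shared with it make these counts uncertain. Per length, in the authors' FPKM (fragments divided by length and library size), Dnmt3a exceeded Dnmt3b by 55.5 ± 12.6 times in hypothalamus (SD over the 3 diets) and 40.5 ± 7.41 times in hippocampus. The same ratio was 9.03 ± 1.28 in colon, 8.73 ± 3.52 in liver and 6.25 ± 2.63 in fat, so that the brain libraries, 32 to 68.5, did not overlap the others, 3.23 to 11.3.

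Among the erasers, Tet1, on chromosome 10 from 62804570 to 62908996 (minus strand), was the most unequal between tissues. It stood at 12.7, 11.8 and 11.9 CPM in hypothalamus and 10.5, 12.1 and 11.6 CPM in hippocampus on AL, DR and DR-AL. Counts elsewhere were low, with 5, 3 and 3 in liver, 18, 13 and 6 in colon and 21, 35 and 40 in fat. Both brain regions overlapped, every brain library lay above every other, and the span of tissue means was 78.8-fold in CPM; in FPKM the means ran from 0.0264 to 0.874. In colon DR-AL against AL was -1.44 [-3.12, -0.11; adjusted p of the Z test 0.0522], not called. At the 3 to 5 counts in liver DR against AL (0.138 and 0.202 CPM) had a log2 interval of -3.24 to 1.81 and was not called.

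Tet2, on chromosome 3 from 133463679 to 133545139 (minus strand), gave the single call in liver on DR. Its counts there were 172 on AL, 309 on DR and 121 on DR-AL, or 6.95, 14.2 and 4.94 CPM. The DR library was high and the DR-AL library low. Tet2 rose by 1.03 in DR against AL [0.76, 1.31; adjusted p of the Z test 1.47e-13] and fell by 0.49 in DR-AL against AL [-0.84, -0.15; 0.0107] and by 1.52 in DR-AL against DR [-1.84, -1.22; 8.28e-25]. The fall against AL was lost with the coefficient of variation of 0.1 and in FPKM with a pseudocount of 1 (-0.30), and with 0.309, estimated over the liver libraries, none of the 3 was called. Other tissues gave 31.3, 25.6 and 30.7 CPM in fat and 30.8, 30.6 and 26.9 CPM in colon. Hypothalamus gave 44.8, 46.9 and 41.1 CPM and hippocampus 25.1, 27.7 and 27.3 CPM. None of these was called; hypothalamus was the highest tissue and liver the lowest, and colon, fat and hippocampus overlapped in CPM. In FPKM hypothalamus (4.42 to 4.72) overlapped colon (4.28 to 4.46), and liver (1.41 to 3.76) overlapped fat and hippocampus.

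Tet3, on chromosome 6 from 83362373 to 83459084 (minus strand), was highest in colon, at 104, 96.2 and 82.1 CPM. Hypothalamus gave 53, 55.1 and 49.5 CPM, hippocampus 46.4, 51 and 53.3 CPM, fat 58.3, 42 and 36 CPM and liver 16, 18.7 and 8.98 CPM. The DR-AL library was the lowest in liver, colon, fat and hypothalamus. In liver, with 396, 407 and 220 counts, Tet3 fell by 0.83 in DR-AL against AL [-1.08, -0.59; adjusted p of the Z test 1.48e-11] and by 1.06 in DR-AL against DR. In colon it fell by 0.34 in DR-AL against AL, from 2757 to 2056 counts, which was lost with DESeq size factors or TMM factors (-0.32 each, just under the fold threshold) and with the coefficient of variation of 0.1. The locus overlaps B230319C09Rik on the other strand. Relative to Tet2, per length in FPKM, Tet3 was 2.35 ± 0.19 times as high in colon and 1.45 ± 0.0324 times in hippocampus (SD over 3 diets). It was 0.562 ± 0.00951 times as high in hypothalamus, with no overlap between these 3 tissues. Liver, at 1.31 ± 0.399, overlapped hippocampus, and fat gave 0.763 ± 0.175.

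Tdg, on chromosome 10 from 82629828 to 82650799 (plus strand), had the narrowest span of tissue means in CPM, 3.57-fold, though not in FPKM (means of 4.58 to 23.9, against 2.37 to 4.59 for Tet2). Liver gave 17.3, 17.2 and 15.7 CPM, colon 58.4, 63.6 and 57.5 CPM and fat 26.3, 28.5 and 36.2 CPM. Hypothalamus gave 34.2, 31.1 and 28.5 CPM and hippocampus 45.1, 44 and 39.2 CPM. Colon was highest, liver lowest, and hypothalamus and fat overlapped in CPM; in FPKM liver (11 to 12.9) lay above hypothalamus (5.82 to 6.66) and fat (2.91 to 6.47) and overlapped hippocampus. No diet comparison of Tdg was called outside fat, the largest being hypothalamus DR-AL against AL at -0.26 [-0.40, -0.13], under the fold threshold. Processed copies of Tdg can share its reads, and the locus overlaps Glt8d2 on the other strand.

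The reader Mbd2 was the most abundant member per length in every library, with 10.2 to 126 FPKM. Colon held 203, 193 and 199 CPM, fat 102, 115 and 123 CPM and hippocampus 71.9, 70 and 72.2 CPM. In hypothalamus it was 57.8, 60.5 and 59.5 CPM and in liver 59.2, 54.4 and 46.8 CPM. Colon stood clear of the others, and hypothalamus and liver overlapped in CPM, though not in FPKM (10.2 to 10.3 against 44.6 to 60.6). The single call was a fall of -0.34 in liver, from 1464 counts on AL to 1146 on DR-AL [-0.45, -0.23; adjusted p of the Z test 1.37e-08], lost with DESeq size factors (-0.32) and with the coefficient of variation of 0.1. Mbd2 exceeded Dnmt1 per length by 1.51 ± 0.0252 times in hypothalamus and 3.03 ± 0.174 times in hippocampus. In colon the ratio was 23.2 ± 4.61, in liver 26.4 ± 11.9 and in fat 12.2 ± 2.59.

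**Figure D3:**
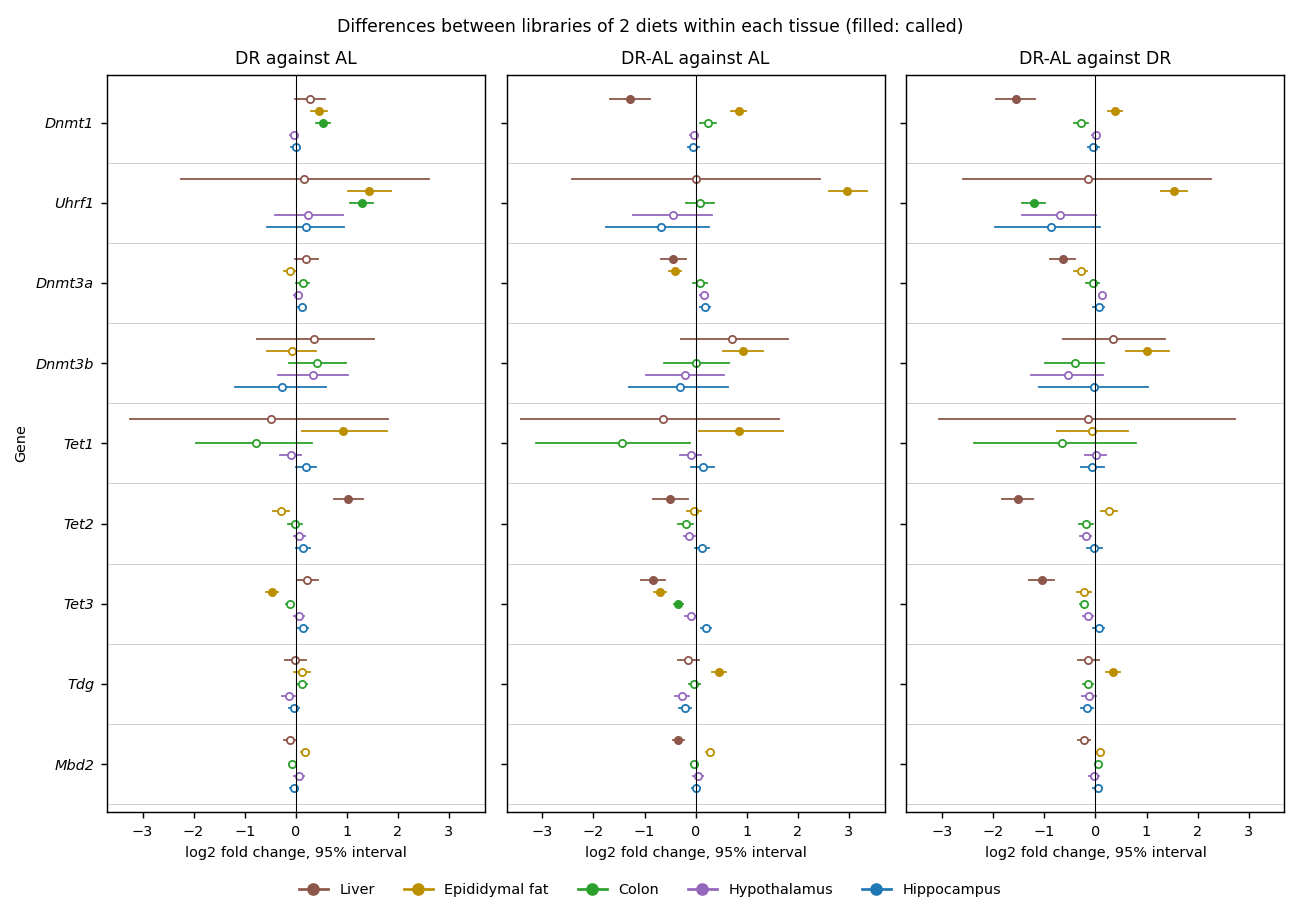
Log2 fold change of each gene between 2 diets within each of the 5 tissues, on library totals, with 95% intervals for counting error as bars and filled points for called differences. Liver DR-AL points lie below 0 for Dnmt1 (-1.28), Tet3 (-0.83), Tet2 (-0.49), Dnmt3a (-0.43) and Mbd2 (-0.34), and none of the brain points is called.

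In fat, the sign of raw differences depended on the scaling between libraries for Dnmt1, Dnmt3b, Tet1, Tdg and Mbd2. So it did for Tet2 in DR-AL against DR. The median of 17306 genes moved by 0.24, 0.34 and 0.24 on library totals in DR against AL, DR-AL against AL and DR-AL against DR. With DESeq size factors it moved by 0.05, 0.00 and 0.09, with TMM factors by 0.02, -0.13 and -0.01, and in the authors' FPKM by -0.45, -1.18 and -0.58. Members are therefore given relative to the median of all genes. On that scale DR-AL against AL gave, on library totals and in FPKM, 0.51 and 0.41 for Dnmt1 and 0.59 and 0.61 for Dnmt3b. Tet1 gave 0.52 and 0.98, Tdg 0.12 and 0.06 and Mbd2 -0.06 and -0.24, so that none of these signs turned. In DR-AL against DR the sign still differed for Tet1 (-0.30 and 0.21) and Tet2 (0.02 and -0.05). Uhrf1 rose in all 3 comparisons and stood 1.19, 2.63 and 1.30 above the median on library totals, and 1.04, 2.40 and 1.22 above it in FPKM. Tet3 was called lower in DR against AL (-0.71 relative to the median) and in DR-AL against AL (-1.03), where FPKM gave -0.73 and -0.98. Dnmt3a fell in DR-AL against AL, -0.74 relative to the median and -0.66 in FPKM.

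Dnmt1 was called higher in fat in all 3 comparisons on library totals (0.46, 0.85 and 0.39), which was 0.22, 0.51 and 0.15 above the median of all genes; the first and last were lost with DESeq size factors (0.27 and 0.24) and TMM factors (0.24 and 0.14). In FPKM the raw differences had the opposite sign (-0.32, -0.77 and -0.45), while relative to the FPKM median Dnmt1 was 0.13, 0.41 and 0.13 above. Dnmt3b was called higher in DR-AL against AL (0.93) and DR-AL against DR (1.01), or 0.59 and 0.77 above the median. Raw FPKM differences were -0.57 and 0.09, or 0.61 and 0.67 above the FPKM median. Tet1, from 21 counts on AL to 35 and 40, was called higher in both comparisons with AL, 0.68 and 0.52 above the median. It was not called with DESeq size factors (0.74 and 0.52) or TMM factors (0.71 and 0.39). Raw FPKM gave 0.17 and -0.20, or 0.63 and 0.98 above the FPKM median. Tdg was called higher on DR-AL (0.46 and 0.35), but was only 0.12 and 0.11 above the median. It was not called with DESeq size factors (0.12 and 0.20) and differed by -0.01 and 0.09 with TMM factors. Raw FPKM gave -1.12 and -0.57, or 0.06 and 0.01 above the FPKM median. Tet2 and Mbd2 were not called in fat on library totals. Tet2 was 0.53 and 0.36 below the median in the comparisons with AL, at -0.29 and -0.03 on library totals, -0.47 and -0.37 with DESeq size factors, -0.51 and -0.50 with TMM factors and -0.93 and -1.55 in FPKM. In DR-AL against DR it was 0.26 on library totals and -0.63 in FPKM. Relative to the FPKM median Tet2 was -0.47 and -0.37 in the comparisons with AL. Mbd2 in the 3 comparisons was 0.18, 0.27 and 0.09 on library totals, -0.01, -0.06 and -0.05 with DESeq size factors, -0.04, -0.20 and -0.16 with TMM factors and -0.66, -1.42 and -0.76 in FPKM. Under the coefficient of variation of 0.1 the calls kept were Uhrf1 in all 3 comparisons, Dnmt1 and Tet3 in DR-AL against AL, and Dnmt3b. With a coefficient of variation of 0.73 estimated over the fat libraries, no member was called there.

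**Figure D4:**
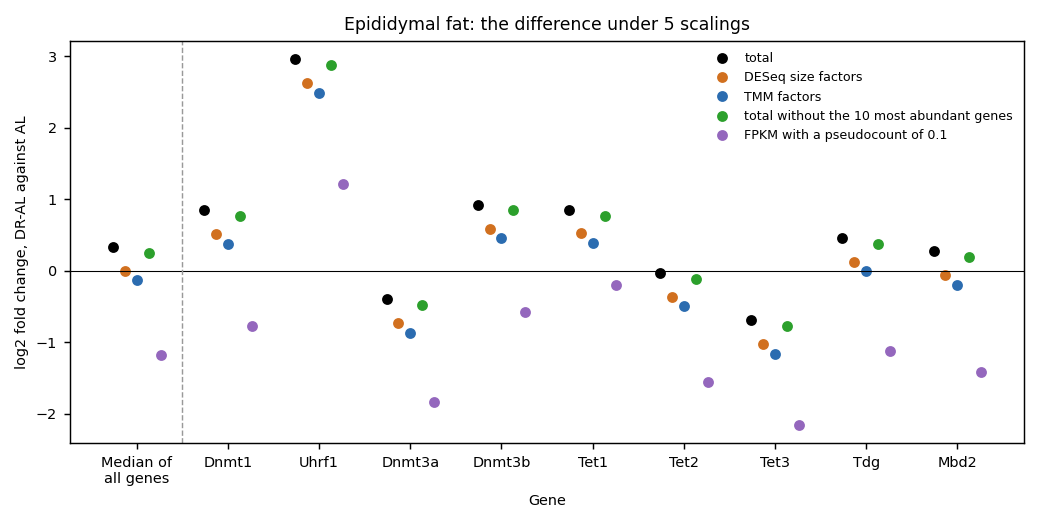
Log2 difference of each gene between DR-AL and AL epididymal fat under each scaling, with the median of all 17306 genes marked for each. The members shift together with the median, which runs from 0.34 on library totals to -1.18 in FPKM, and Uhrf1 lies above it (2.63 and 2.40) under both.

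Cofactors were counted in fat in the same comparisons. Of 7 writer cofactors 2 rose and 0 fell in DR against AL, 6 rose and 0 fell in DR-AL against AL, and 5 rose and 1 fell in DR-AL against DR, beside 35.2%, 46.0% and 38.3% of all genes called higher. Hells rose from 47 counts on AL to 67 on DR and 208 on DR-AL (0.71 and 2.07 against AL). Dnmt3l, a cofactor of the de novo enzymes known from germ cells, had 13, 29 and 39 counts (1.32 and 1.49 against AL). Their part beside the germ cell markers given above was not tested.

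A diet effect shared by the tissues was tested by edgeR's quasi-likelihood test over all 15 libraries with tissue as a covariate, in which the 5 tissues serve as repeats although they came, by the numbers of mice given, from 1 set of mice per diet. It called 0 of 9 members in each of DR against AL, DR-AL against AL and DR-AL against DR, beside 0.0114%, 0.00572% and 0.0114% of 17476 genes. At an unadjusted p under 0.05 the members were 0, 1 and 0 with edgeR, and DESeq2 called 0, 0 and 0 with 0, 1 and 0 at that level. The 1 was Tet3 in DR-AL against AL, at -0.41 log2. Uhrf1 gave 0.63 for DR against AL, with its own tissues at 0.16 in liver, 1.43 in fat, 1.29 in colon, 0.25 in hypothalamus and 0.19 in hippocampus. Whether a difference seen in 1 tissue differed from another was not tested.

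Tissues were compared in the same edgeR fit, where the 3 libraries of a tissue, 1 pool per diet, served as its repeats. The p-values between tissues therefore do not measure the spread between mice on 1 diet. Brain against peripheral tissues, the mean of hypothalamus and hippocampus against that of liver, fat and colon with diet as a covariate, called 7 of 9 members, beside 80.3% of all genes, so that the count is close to the background. Tet1 was 19.2-fold higher in brain (log2 4.26, edgeR adjusted p 1.21e-08), Dnmt1 2.63-fold (2.26e-05) and Dnmt3a 2.04-fold (3.85e-06). Mbd2 was 2.28-fold higher in the periphery (1.67e-08), Dnmt3b 2.82-fold (0.000102), Uhrf1 3.79-fold (0.00169) and Tdg 1.19-fold (0.00756). Tet2 (0.35, adjusted p 0.0716) and Tet3 (-0.08, adjusted p 0.622) were not called. In CPM, every one of the 6 brain libraries lay above the 9 others for Tet1 and Dnmt1 and below the colon and fat libraries for Uhrf1; in FPKM this failed for Dnmt1, whose colon DR library lay above hippocampus.

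The scale moved these differences too. On library totals the median of 17476 genes was 0.49 higher in brain, against 0.02 with the TMM factors of the fit and -0.14 in FPKM. Tdg was therefore 0.22 higher in brain on library totals and -0.25 with TMM, and relative to the median -0.27 under both and -0.19 in FPKM. Without colon Tdg was 0.18 and without hypothalamus 0.14, both with the sign turned and not called, and its call was also lost without AL or DR libraries (adjusted p 0.0621 and 0.0542). Uhrf1 without colon was -0.84 and not called. Tet2 was called with DESeq2 (adjusted p 0.0394), with DESeq size factors (0.047) and on library totals (0.000931), as well as without fat (0.36), colon (0.62), hippocampus (0.58) or DR (0.46). Tet3 was called on library totals (adjusted p 0.0156), without liver (-0.46), without fat (-0.29) and without colon (0.51). Relative to the median, Dnmt1 was 1.37, Dnmt3a 1.01, Tet1 4.24, Uhrf1 -1.95, Dnmt3b -1.52 and Mbd2 -1.21 with TMM. In FPKM with a pseudocount of 0.1, before the median of -0.14 is taken off, the same were 1.18, 0.95, 2.71, -1.69, -1.13 and -1.92.

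Hypothalamus against hippocampus called 3 of 9 members in that fit, beside 30.7% of all genes, a share like the background. Dnmt3a was 1.73-fold higher in hypothalamus (log2 0.79, edgeR adjusted p 0.00501). Tdg was 1.62-fold higher in hippocampus (-0.70, 0.000958) and Mbd2 1.42-fold (-0.51, 0.00288). All 3 hypothalamus libraries lay on the same side of all 3 hippocampus libraries for each of these genes. Without the AL or without the DR libraries Tdg alone was called (-0.73 and -0.67), Dnmt3a being 0.78 and 0.83 and Mbd2 -0.49 and -0.53, and on library totals, where the median of all genes was 0.26 higher in hypothalamus, Mbd2 (-0.27) was not. With the 6 brain libraries fitted alone 5 were called, Dnmt1 (0.50) and Tet2 (0.49) being added, and without liver these were called as well (0.50 and 0.48). Relative to the median, Dnmt3a was 0.77, Tdg -0.73 and Mbd2 -0.54.

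Other methyl-CpG readers, 8 of 9 in the table, were placed beside Mbd2. Between brain and periphery 5 of 8 were higher and 1 lower, with a median of 1.02, beside 80.3% of all genes called in either direction. Mbd5 was 4.74-fold higher in brain and Mbd4, a thymine glycosylase, 2.79-fold. Mbd1, whose locus is shared with Ccdc11, was 2.29-fold lower, the direction of Mbd2. In hypothalamus against hippocampus 0 were higher and 4 lower, beside 30.7% of all genes called in either direction. For diet, liver had 2 readers higher and 0 lower in DR against AL, of which Mbd1 rose by 0.82 (1083 to 1686 counts) and Mbd3 by 0.40, and 1 higher and 2 lower in DR-AL against AL, beside 28.0% and 30.9% of all genes called. In colon 0 of 8 were called in any of the 3 comparisons, beside 19.7%, 14.3% and 14.5%.

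Genes of demethylation and base excision repair, 13 of 14 in the table, were counted in liver beside Tet2. In DR against AL 2 rose and 4 fell, in DR-AL against AL 3 rose and 4 fell, and in DR-AL against DR 6 rose and 4 fell. Of 17408 genes tested in liver 3140 rose and 1727 fell, 2619 and 2756, and 2940 and 4171 in the same order. The stress-induced Gadd45 genes have been linked to active demethylation. Gadd45b had 82, 71 and 368 counts and rose by 2.17 in DR-AL against AL. Gadd45g had 573, 225 and 1166 counts, falling by 1.16 on DR and rising by 1.04 on DR-AL against AL. Gadd45a, with 45, 105 and 40 counts, rose by 1.40 on DR. In colon the same list had 2 higher and 0 lower on DR, Gadd45g (0.57) and Parp1 (0.46), beside 9.04% of all genes called higher. Between brain and periphery 4 of 13 were higher and 5 lower, and between hypothalamus and hippocampus 2 higher and 3 lower, beside 80.3% and 30.7% of all genes called.

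The methyl donor cycle makes S-adenosylmethionine, the methyl donor of the Dnmt enzymes. Of its 14 genes in liver 3 rose and 5 fell on DR, and 6 rose and 3 fell in DR-AL against AL, beside 3140 and 1727, and 2619 and 2756, of the 17408 genes tested. Mat1a, the liver enzyme that makes the donor, had 144762, 80258 and 195985 counts and fell by 0.67 on DR. Bhmt, which remethylates homocysteine, rose by 1.31 on DR-AL (113223, 99743 and 277517 counts), and Nnmt, which uses up the donor on nicotinamide, by 1.33 (4653, 2964 and 11564 counts). Between brain and periphery 2 of 14 were higher and 11 lower, beside 80.3% of all genes called. In fat 9 of 14 fell in DR against AL, beside 10.4% of all genes, led by Mat1a with 32997 counts on AL and 105 on DR (-8.09), in the libraries whose hepatocyte markers other than Cyp2e1 summed to 5.79e+03 and 57 CPM; the part of liver RNA was not tested. Of the 14 in colon 1 rose and 4 fell in each comparison with AL, where 1649 and 1064 of 18242 genes tested rose and 1937 and 1551 fell.

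Enzymes that supply 2-oxoglutarate, a cosubstrate of the Tet enzymes, were 4. In liver 1 rose on DR, Idh1 (0.41), where 3140 of 17408 genes tested rose. In DR-AL against AL 1 rose and 3 fell there, Idh1 being among the lower (-0.35), where 2619 genes rose and 2756 fell. In fat 3 rose on DR, beside 35.2% of all genes, and 3 fell on DR-AL against AL, beside 11.9%. Idh1 was at 6263, 7748 and 2535 counts there. Colon had 1 higher on DR, Idh3a (0.40), beside 9.04% of all genes. In the brain regions the 1 call was Idh1 in hypothalamus on DR-AL against AL (-0.41), where 9.02% of all genes were called lower. Between brain and periphery 1 was higher and 3 lower, beside 80.3% of all genes called. With 4 genes these counts say little.

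The genes most like each member over the 15 libraries, by Pearson correlation of log2(CPM + 0.5) among the 16160 genes whose mean reached 1 CPM, are named as a description. For Uhrf1 they were Cdc20, Prc1 and Kif15 (r = 0.98 each), and for Dnmt3b Mcm7, Apobec3 and Als2cr12 (0.97, 0.96 and 0.96). Dnmt1 was nearest to Sart3, Atn1 and Gpatch1 (0.99 each), Dnmt3a to Eif2ak4, Mbip and Zfyve27 (0.99, 0.98 and 0.98) and Tet1 to Pdzd4, Syt11 and Ksr2 (1.00 each after rounding). For Tet2 the nearest were Proser1, Eps15l1 and Sfswap (0.99, 0.98 and 0.98), for Tet3 Ap5m1, Fryl and Trp53bp2 (0.98, 0.97 and 0.97), for Tdg Slc30a4, Cap1 and Usp12 (0.99, 0.99 and 0.98) and for Mbd2 Tor4a, Blnk and Edn1 (0.99, 0.99 and 0.98).

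Promoter windows of 300 bases, 250 before and 50 after a start, were read from RefSeq sequences on GRCm38.p6 for the members, with 13 windows for 8 of them; Mbd2 had none. Over 32851 windows of all genes the median number of CG pairs was 7, with quartiles of 3 and 20. Tet2 had 57, more than 99.8% of all windows, and Dnmt3a had 46, 47 and 18 in its 3 windows. Dnmt1 had 33, 12 and 2 and Uhrf1 33 and 12, while Dnmt3b had 30, Tdg 26, Tet3 22 and Tet1 17. All windows but 1 of Dnmt1 lay above the median of all genes, and their own methylation was not measured here. Because Uhrf1 and Dnmt1 both rose in colon on DR beside the markers of dividing cells, the letters TTTCCCGC, TTTGGCGC and TTTCGCGC, forms of the site of the cell cycle factor E2F, were searched on both strands. At least 1 of these forms was in 606 windows, or 1.84% (1.07%, 0.514% and 0.323% for each). Among the members, the matches lay in 1 window of Dnmt1, with 2, and in 1 window of Uhrf1, with 1. Each form searched contains CG, and each of these windows held 33 CG pairs, more than 91.4% of all windows. The share of 1.84% is over windows of any CG content and was not matched to theirs, so it says little about such windows. CCAAT, in 37.4% of all windows, and GGGCGG, in 35.7%, were in both of these windows as well. The excerpts are 30 bases, 5′ to 3′ on the strand of the gene, and capitals mark the match; the second reads as the reverse complement of TTTCGCGC.
Dnmt1, chr9:20952574-20952603, minus strand: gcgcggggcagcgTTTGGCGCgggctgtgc
Dnmt1, chr9:20952824-20952853, minus strand: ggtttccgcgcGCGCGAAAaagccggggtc
Uhrf1, chr17:56304117-56304146, plus strand: cccgagtcgggTTTCGCGCgcccaggcgtc
A match says that these letters are present, and binding was not measured.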

How the data were processed

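RNA-Seq libraries from 5 tissues on 3 diets, 1 library each, were analysed from the table the authors deposited. Per the study's methods, the authors used rRNA-depleted, strand-specific paired-end reads, trimmed them, aligned them to mm10 in Strand software and removed duplicates; the submitters' processing notes list mm9 and DESeq2. The deposited raw counts per locus were used as the main unit. The FPKM values deposited by the authors, for which the methods name DESeq and a normalization to AL within each tissue without stating how FPKM were scaled between libraries, were used for comparing genes and as an alternative. Loci without a gene name (0.258 to 1.39% of counts) were left out of totals. Table positions overlapped GENCODE M21 genes on GRCm38 for 13.6% of 21384 symbols, so coordinates are those of GRCm38.

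Diets within a tissue were compared by the Z test (Poisson variance of square-rooted counts). Fits over 15 libraries used edgeR 4.0.16 (TMM, filterByExpr, quasi-likelihood) and DESeq2 1.42.0 in R 4.3.3; other steps used Python 3.11.15, numpy 2.4.6, pandas 2.3.3, scipy 1.17.1 and matplotlib 3.10.9. A pseudocount of 0.5 counts was added to scaled counts for log2 differences between diets, of 0.5 CPM for correlations and of 0.1 or 1 for FPKM. Both tests were run on simulated counts with 200 genes changed by a fold of 2. For the Z test these held counting error only, which is what that test assumes. For edgeR they held a single spread for all tissues. The coefficient of variation estimated within a tissue ran from 0.07 in hippocampus to 0.73 in fat. Neither run therefore shows how the tests perform at the spread between pools. The members and lists were chosen with earlier results of these data known. All 9 members are named; of each pathway list at most 3 genes with the largest difference are named per comparison, and for each member the 3 genes most alike. Pcna, Prm2, Alb and other marker genes are named as the most abundant or defining genes of their lists. Mki67, the dividing-list genes in liver, the single crypt and stem cell genes in colon and the readers between brain and periphery were named after their values were seen. So were Cyp2e1 and Zbtb16 as genes left out of a sum. Alternatives were other scalings, filters, folds, errors and units, each tissue or diet left out, and 2 added after seeing the data.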

Additional observations from a re-analysis of the deposited data

Results flagged for a closer look

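On library totals, Dnmt1 went opposite ways in epididymal fat and liver. DR-AL against AL was 0.85 in fat and -1.28 in liver, 2.13 log2 units apart, and DR-AL against DR was 0.39 in fat and -1.55 in liver, 1.94 apart. Uhrf1 went opposite ways in fat and colon for DR-AL against DR, at 1.54 in fat and -1.21 in colon, 2.74 apart. Each side was called within its own tissue on library totals, with 1 library per diet, and the difference between tissues was not tested. The Dnmt1 values share the DR-AL libraries of each tissue. In fat the median of all genes was 0.34 and 0.24 higher in these comparisons, which leaves Dnmt1 at 0.51 and 0.15 above it. In FPKM fat Dnmt1 was -0.77 and -0.45, the sign it had in liver (-1.19 and -1.37), while the fat median of all genes was -1.18 and -0.58. Relative to the FPKM median of its tissue, Dnmt1 was 0.41 and 0.13 in fat and -1.13 and -1.35 in liver. The 0.39 was not called with DESeq size factors (0.24) or TMM factors (0.14). The germ cell markers other than Zbtb16 summed to 11.9 CPM on AL, 443 on DR and 2.11e+03 on DR-AL in fat; their part was not tested.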

How the results depend on the processing

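Members called between diets (7, 13 and 9 of 45 for DR against AL, DR-AL against AL and DR-AL against DR) depended on the error and the unit. With the spread estimated over the 3 libraries of a tissue 1, 0 and 1 were called, and with a coefficient of variation of 0.1 the comparisons gave 3, 6 and 7. A fold of at least 2 gave 3, 2 and 6, by its own construction. FPKM with a pseudocount of 0.1 and no test put 14 members past the fold in DR against AL and 16 in DR-AL against DR. Leaving fat out, chosen after its germ cell and liver genes were seen, left 3, 6 and 5. The filter of a mean of 10 counts lost 0 of the 29 called differences, the total without the 10 most abundant genes 2, DESeq size factors 8 and TMM factors 7.

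Signs of raw differences turned in fat, where the scaling moves all genes. With FPKM and a pseudocount of 0.1 or 1, Dnmt1 was -0.32 and -0.23 in DR against AL, -0.77 and -0.53 in DR-AL against AL and -0.45 and -0.30 in DR-AL against DR. In DR-AL against AL Dnmt3b was -0.57 and -0.20, Tet1 -0.2041 and -0.0288 and Tdg -1.12 and -0.93, with Tdg at -0.0104 under TMM factors. Tdg in DR-AL against DR was -0.57 and -0.45. Relative to the FPKM median, with the pseudocount of 0.1, Dnmt1 was 0.13, 0.41 and 0.13 in the same order. In DR-AL against AL Dnmt3b was then 0.61, Tet1 0.98 and Tdg 0.06, and in DR-AL against DR Tdg was 0.01. On that scale none of these signs turned. Among the 29 called differences no sign turned outside fat.

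Between tissues, Tdg turned to 0.18 without colon, 0.14 without hypothalamus and 0.22 on library totals, a scaling added after the data were seen; without hippocampus it was -0.6140. Leaving out each tissue or diet gave 6 to 9 members called between brain and periphery, and leaving out each diet 1 to 3 between hypothalamus and hippocampus, where the 6 brain libraries alone gave 5. The cause of these changes was not tested. For the diet effect shared by tissues 0 members were called under each alternative run. With 1 library per tissue and diet, counts of 3 to 40, as for Tet1 outside the brain, limit what could be seen.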

Other observations

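Genes of liver metabolism also appeared at low counts in the brain libraries. Mat1a had 40, 4 and 5 counts in hippocampus on AL, DR and DR-AL and Bhmt 35, 1 and 17 in hypothalamus. The hepatocyte list summed to 13.7, 4.46 and 9.07 CPM in hypothalamus and 3.95, 1.92 and 2.42 CPM in hippocampus. Mat1a was called lower on DR in both regions, and its ratio to these markers was not tested. In hypothalamus the reader Zbtb4 was called higher in DR-AL against AL (4345, 5772 and 6310 counts, 0.47 log2), as was Cxxc5, a CXXC zinc finger protein (1473, 2043 and 2210 counts, 0.51).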
